A study of Mus musculus with 2 samples.

Results

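Prostaglandin synthesis and sensing were examined through 10 genes, chosen by symbol among the 33696 genes counted: the cyclooxygenases Ptgs1 and Ptgs2, the terminal synthases Ptges, Ptgis and Ptgds, the breakdown enzyme Hpgd, and the receptors Ptger2, Ptger3, Ptger4 and Ptgfr. The data came from 2 single-cell RNA libraries of mouse middle phalanx (P2) amputation wounds at postnatal day 8. In both groups, neonatal ICR mice had digits amputated through P2 at postnatal day 3, and a bead was placed in the wound at postnatal day 7. The bead carried FGF8, a fibroblast growth factor, at 500 ng/μl in the FGF8 library, or 0.1% bovine serum albumin (BSA) in the control library. Cells were taken 24 h later from 20 digits of 5 mice of both sexes, pooled into 1 library per group, after the surrounding epithelium had been removed. The tissue was dissociated with an enzyme, and the part of that step in the levels was not tested. According to the study, the FGF8 pool likely holds digits that did not regenerate. With 1 library per group, the treatment, the pool of animals and the library cannot be told apart, and no test between groups was possible.

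Prostaglandins are lipid signals made from arachidonic acid, which phospholipase A2 frees from membranes. Cyclooxygenases, constitutive Ptgs1 and inducible Ptgs2, turn it into prostaglandin H, and a terminal synthase then makes prostaglandin E (Ptges), prostacyclin (Ptgis) or prostaglandin D (Ptgds). Hpgd inactivates prostaglandins inside cells, and signals are read by G protein-coupled receptors on the cell surface, among them Ptger2 and Ptger4, which raise cyclic AMP, Ptger3, which mostly lowers it, and Ptgfr, the receptor of prostaglandin F. In bone and wounds, prostaglandin E is known for its part in inflammation, bone formation and resorption.

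The promoters of Ptgs2, Ptger4 and Ptger3 are shown because these 3 genes had the log2 ratios farthest from 0 between the libraries in fibroblast-like cells. RefSeq held a start-site window, 250 bases before to 50 after the start (GRCm38.p6 table), for 9 of the 10 genes, and each window matched 1 place in GRCm39. The Ptgs2 window lies at chr1:149975532-149975831 (plus strand), that of Ptger4 at chr15:5273619-5273918 (minus strand) and that of Ptger3 at chr3:157272263-157272562 (plus strand). Both strands were searched for the core promoter motif TATAAA, for the short form of the cyclic AMP response element, TGACG, for the E-box CACGTG and for the AP-1 site, which reads TGANTCA. Matches are in capitals.
Ptgs2: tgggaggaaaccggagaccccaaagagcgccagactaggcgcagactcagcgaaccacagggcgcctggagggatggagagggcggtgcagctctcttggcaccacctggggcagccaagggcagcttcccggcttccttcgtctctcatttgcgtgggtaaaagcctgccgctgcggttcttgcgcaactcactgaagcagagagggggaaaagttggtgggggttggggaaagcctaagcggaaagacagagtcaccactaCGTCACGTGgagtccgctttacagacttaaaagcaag
Ptger4: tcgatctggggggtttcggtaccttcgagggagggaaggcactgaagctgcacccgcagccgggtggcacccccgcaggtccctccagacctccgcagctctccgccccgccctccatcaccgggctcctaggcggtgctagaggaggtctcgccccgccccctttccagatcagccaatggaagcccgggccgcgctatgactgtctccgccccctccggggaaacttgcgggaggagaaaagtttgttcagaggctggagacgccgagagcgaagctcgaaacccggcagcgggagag
Ptger3: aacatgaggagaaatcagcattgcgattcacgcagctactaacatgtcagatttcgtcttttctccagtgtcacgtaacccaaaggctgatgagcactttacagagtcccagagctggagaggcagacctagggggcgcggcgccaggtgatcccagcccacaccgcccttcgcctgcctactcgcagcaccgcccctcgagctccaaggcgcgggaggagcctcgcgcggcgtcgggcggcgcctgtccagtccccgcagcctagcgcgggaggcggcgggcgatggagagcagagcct
In the Ptgs2 window a reversed TGACG, read as CGTCA, ran into an E-box with which it shared 2 bases. TGACG was found in 20.8% and CACGTG in 7.15% of all 32851 windows. None of the 4 motifs was in the Ptger4 or Ptger3 window, which says only that these letters are not there. TATAAA was in the Hpgd window and in 13.6% of all windows, and TGANTCA was in the Ptgds window and in 7.81% of all windows.

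Counts were unique molecular identifiers (UMIs), 1 for each captured RNA molecule, and levels are UMIs summed over the cells of a type and scaled to a total of 1000000 (CPM). The FGF8 library kept 6715 of 7249 barcodes (median 12251 UMIs per cell) and the BSA library 3252 of 3703 (median 15377), and 6 barcodes occurred in both libraries. Brackets give exact 95% intervals for counting error; the spread between animals is outside them. Fibroblast-like cells, in which all 9 fibroblast markers were detected, numbered 3276 with FGF8 and 1657 with BSA. Neutrophil-like cells numbered 535 and 157, chondrocyte-like 135 and 55, and keratinocyte-like 228 and 160. The libraries differed in sex: 24.6% of the cells that could be called were female with FGF8 and 79.3% with BSA, so ratios are also given within cells called female or male. Summed CPM of the 9 fibroblast markers in fibroblast-like cells was also lower in the FGF8 library (24789 against 45831, with the most abundant, Col3a1, at 7081 against 12790 CPM). Its part in the ratios was not tested.

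Erythroid-like cells, which should lack most of these genes, were used to judge the level that free RNA can bring into other cells. They read 7.14 CPM of Ptgs2 with FGF8 and 0.702 CPM with BSA. Had Ptgs2 come with the collagen gene Col1a2 at the ratio seen in fibroblast-like cells, 4.91 and 1.96 CPM would be read there. For Ptgis they read 1.51 and 17.6 CPM (7 and 25 UMIs), where that ratio would bring 6.36 and 9.47 CPM. Ptgs2 in Schwann-like cells (7.43 and 0.471 CPM, where that ratio would bring 14.2 and 2.35 CPM) is not read as expression, nor is that in pericyte-like cells with FGF8 (8.99 CPM against 13.9 CPM). Pericyte-like cells with BSA read 6.34 CPM, above the 2.33 CPM that ratio would bring. For Hpgd, erythroid-like cells read 8.65 CPM with FGF8 and 0 CPM with BSA, where the Hpgd to Col1a2 ratio would bring 10.9 and 9.79 CPM. Such estimates, here and below, are therefore rough. They take all RNA of the marker gene in the receiving cells as free RNA, and whether those cells also express it was not tested.

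**Figure D1:**
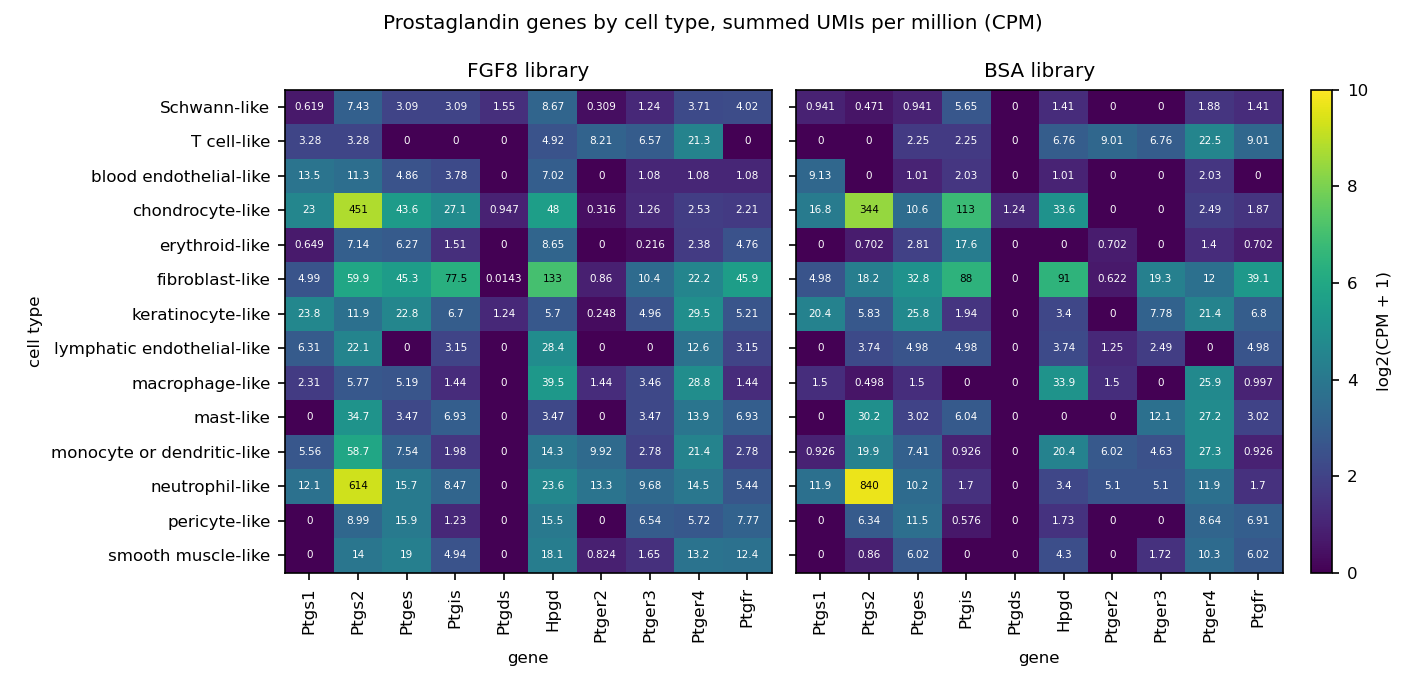
Level of each prostaglandin gene (columns) in each named cell type (rows) in the FGF8 library (left) and the BSA library (right), as CPM, printed in each cell and coloured as log2(CPM + 1). Ptgs2 stands at 614 and 840 CPM in neutrophil-like cells and at 451 and 344 CPM in chondrocyte-like cells.

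Ptgs2 was held mostly by 3 cell types. Among the named types, neutrophil-like cells had the highest level in both libraries, 614 CPM [577 to 653] with FGF8 and 840 CPM [768 to 918] with BSA, and chondrocyte-like cells came next with 451 CPM [428 to 475] and 344 CPM [316 to 374]. Fibroblast-like cells stood at 59.9 CPM [58.1 to 61.8] with FGF8 and 18.2 CPM [16.8 to 19.7] with BSA. Monocyte or dendritic-like cells, at 58.7 CPM [49.7 to 69.0] and 19.9 CPM [14.4 to 26.8], did not differ from fibroblast-like cells beyond counting error in either library. At the Ptgs2 to S100a9 ratio of neutrophil-like cells, free RNA would bring 3.05 and 11.1 CPM of the monocyte or dendritic-like values. Mast-like cells read 34.7 CPM [16.6 to 63.7] and 30.2 CPM [14.5 to 55.5] from 10 UMIs in each library. Cells left without a type name also held Ptgs2: 4 groups of 1007 cells in all read from 42.3 to 236 CPM with FGF8 and from 27.8 to 246 CPM with BSA, from 7 to 133 UMIs each. The highest of them, with 15 and 7 UMIs, had Il1b among its leading genes, and the largest count came from a group led by Ccl9 (133 and 66 UMIs, 42.3 and 62.2 CPM). The order of the leading pair of named types was the same in both libraries.

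In fibroblast-like cells, 4184 Ptgs2 UMIs with FGF8 stood against 644 with BSA, a 3.29-fold higher level and a log2 ratio of 1.72 [1.60 to 1.84]. The ratio was 1.59 [1.43 to 1.75] in cells called female and 1.61 [1.36 to 1.87] in those called male. Ptgs2 is one of the genes that the study listed as higher in fibroblasts on these same libraries, so its direction here is not independent evidence. Cells with at least 1 Ptgs2 UMI made up 29.5% of fibroblast-like cells with FGF8 and 12.1% with BSA (median depths 18800.5 and 20535 UMIs), and 3.59% and 1.22% of erythroid-like cells (6983 and 18542 UMIs). After each cell was thinned to 2000 UMIs these shares were 7.88% [6.96 to 8.87] and 1.80% [1.21 to 2.58], beside 1.25% and 0% in erythroid-like cells (of which 479 and 76 were deep enough; 0 of 76 allows up to 4.74%). The UMIs sat in few cells: the richest 10% of fibroblast-like cells held 75.9% of them with FGF8 and 94.6% with BSA, and no cell held more than 45 UMIs. S100a9, an abundant neutrophil gene, read 16.8 CPM in fibroblast-like cells with FGF8, and at the Ptgs2 to S100a9 ratio of neutrophil-like cells that would bring 0.516 CPM of the 59.9 CPM of Ptgs2.

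Neutrophil-like cells went the other way, with a Ptgs2 log2 ratio of -0.45 [-0.61 to -0.29], but within cells called female (-0.26 [-0.76 to 0.23]) and in those called male (-0.27 [-0.66 to 0.15]) the interval reached across 0. Ptgs2 was detected in 52.1% of them with FGF8 and 48.3% with BSA at 2000 UMIs per cell, and these intervals overlapped. Markers of other cell types also differed in neutrophil-like cells. Erythroid markers summed to 8181 CPM with FGF8 and 48234 CPM with BSA, led by Hbb-bs at 3987 and 21820 CPM, and fibroblast markers to 5975 and 1984 CPM, led by Col3a1 at 1845 and 497 CPM. Their part in the ratio was not tested. In chondrocyte-like cells the Ptgs2 ratio was 0.39 [0.25 to 0.54], from 1430 and 553 UMIs. A single one of the 55 BSA chondrocyte-like cells held 20.4% of that library's chondrocyte-like Ptgs2 UMIs and a single one of the 135 FGF8 cells held 7.06%. Chondrocyte-like cells with a Ptgs2 UMI made up 31.1% [23.4 to 39.6] with FGF8 and 16.4% [7.77 to 28.8] with BSA at 2000 UMIs per cell, and these intervals overlapped. Markers of other types in chondrocyte-like cells were higher with FGF8 for neutrophils (164 against 3.11 CPM, S100a9 95.6 against 1.24), erythroid cells (2370 against 118 CPM, Hbb-bs 1294 against 69.0), macrophages (131 against 8.71 CPM, C1qa 38.2 against 1.24) and keratinocytes (252 against 80.8 CPM, led by Sfn). At the Ptgs2 to S100a9 ratio of neutrophil-like cells, free RNA would bring 2.94 and 0.0614 CPM of the 451 and 344 CPM.

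Of all Ptgs2 UMIs in the FGF8 library, 58.3% lay in fibroblast-like cells, 19.9% in chondrocyte-like cells and 14.2% in neutrophil-like cells. In the BSA library the shares were 34.5%, 29.6% and 26.5%. Of the UMIs of all genes, fibroblast-like cells held 69802761 of 103223720 with FGF8 and 35373129 of 54376379 with BSA. The fibroblast-like part of the Ptgs2 UMIs depended on the cells used. With FGF8 it was 37.5% under a stricter cell filter (500 to 6000 genes and under 10% mitochondrial UMIs), 31.4% with each cell thinned to 2000 UMIs and 15.3% with types called per cell from markers, and with BSA it was 22.1%, 8.58% and 7.34%. It was larger with FGF8 than with BSA in each of these settings.

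**Figure D2:**
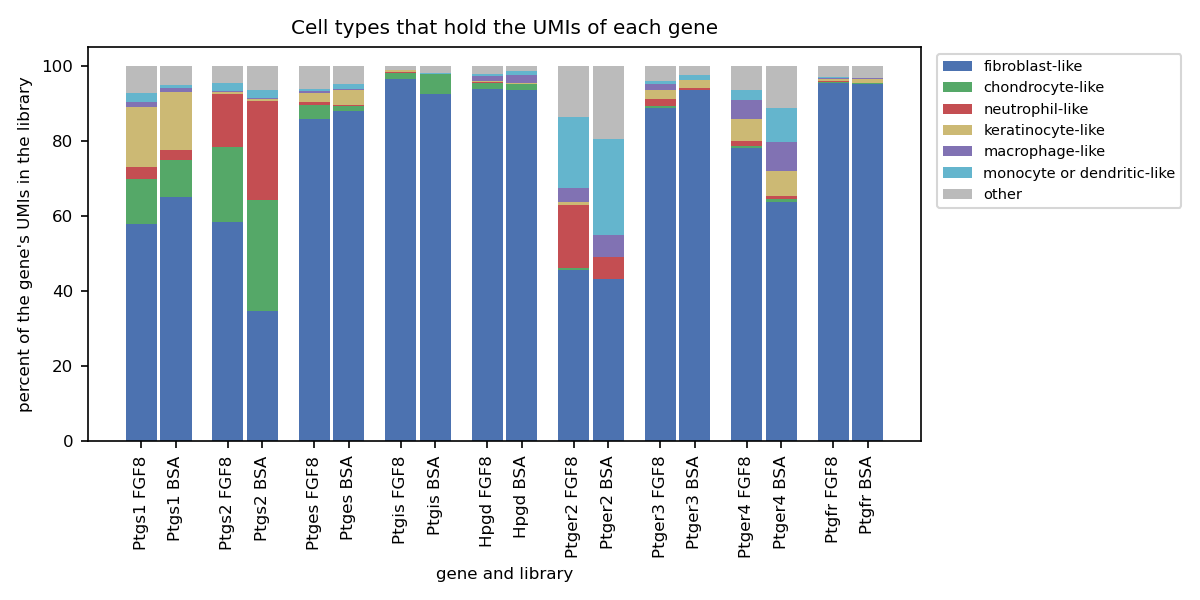
Percent of each gene's UMIs in each library (one bar per gene and library, Ptgds left out for its few UMIs) that lay in each cell type. For Ptgs2 the fibroblast-like part is 58.3% with FGF8 and 34.5% with BSA, and for Ptgfr it is 95.4% and 95.2%.

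Fibroblast-like cells were split into 6 subclusters without using the prostaglandin genes, the study's lists or the sex-linked genes, and they are called by their leading genes. Ptgs2 stood at 80.5 CPM with FGF8 and 33.1 with BSA in the Prg4 and Mmp3 subcluster and at 85.2 and 37.4 CPM in the Fmod and Scx subcluster. The Lpl and Agtr2 subcluster read 34.0 and 7.40 CPM, and the Tmem132c and Nrg1 subcluster 10.7 and 2.75 CPM. In these 4 subclusters the log2 ratio ran from 1.19 [1.00 to 1.38] in Fmod and Scx cells to 2.20 [1.73 to 2.71] in Lpl and Agtr2 cells, with all 4 intervals above 0. The order differed by sex. In cells called female the ratio was 2.37 in Tmem132c, 1.33 in Prg4, 0.88 in Fmod and 2.42 in Lpl cells, and in those called male it was 1.07, 0.63, 2.04 and 1.18, with every interval above 0. A subcluster of low depth, led by Lars2, read 84.3 CPM with FGF8 and 4.73 with BSA, from 140 and 3 UMIs (ratio 4.16 [2.58 to 6.45]), and the Corin and Alx4 subcluster had 1 Ptgs2 UMI with FGF8 and 0 with BSA. The Prg4 subcluster made up 29.0% of fibroblast-like cells with FGF8 and 14.8% with BSA, and the Tmem132c subcluster 29.5% and 40.5%. With the FGF8 subclusters weighted as in the BSA library, the Ptgs2 ratio was 1.40.

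**Figure D3:**
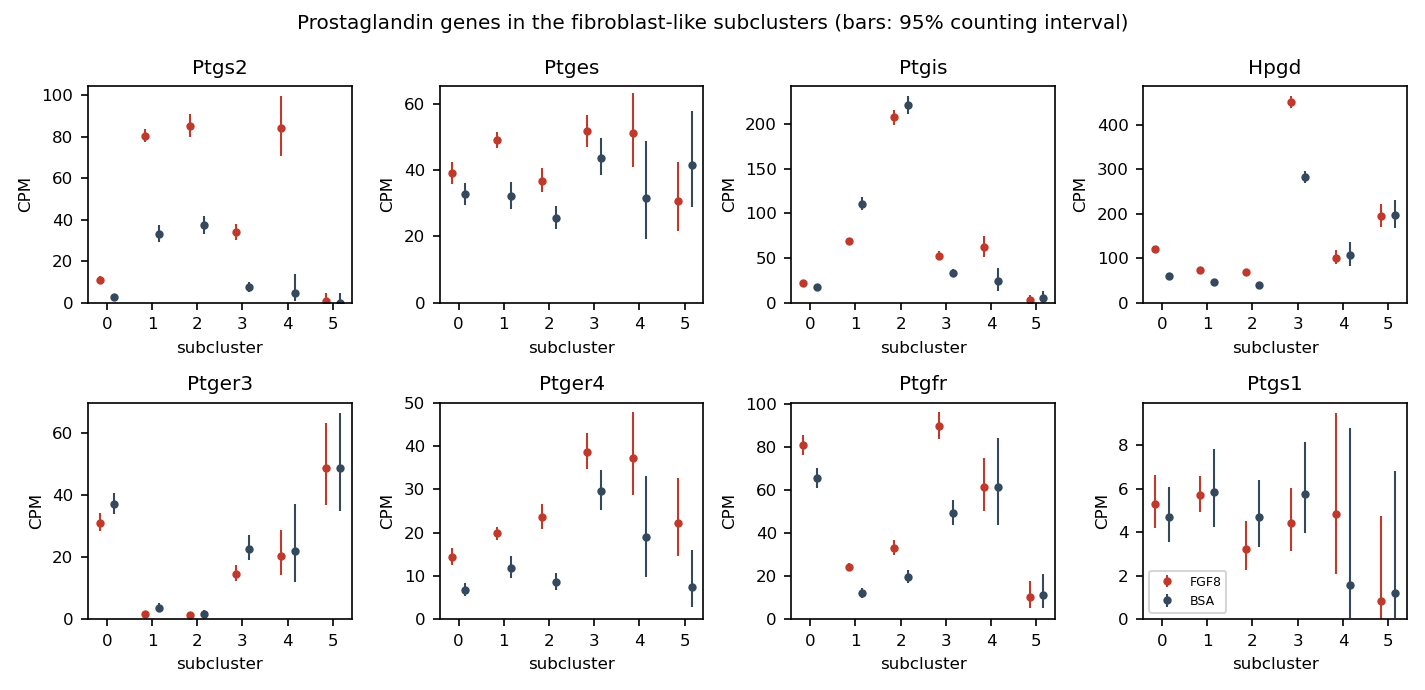
Levels of 8 prostaglandin genes in CPM (y axis, from 0) in the fibroblast-like subclusters (x axis: 0 Tmem132c and Nrg1, 1 Prg4 and Mmp3, 2 Fmod and Scx, 3 Lpl and Agtr2, 4 cells of low depth led by Lars2, 5 Corin and Alx4), for the FGF8 (red) and BSA (dark) libraries with 95% counting intervals. Each gene has its own pattern: Ptgis peaks in subcluster 2 (208 and 221 CPM), Hpgd in subcluster 3 (451 and 282 CPM) and Ptger3 in subcluster 5 (48.7 and 48.9 CPM).

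Ptgs2os, named as an opposite-strand transcript of Ptgs2, moved with it in fibroblast-like cells (5.69 CPM with FGF8 and 2.40 with BSA, log2 ratio 1.24 [0.90 to 1.60]). In chondrocyte-like cells Ptgs2os stood at 11.0 CPM with FGF8 and 42.3 with BSA (35 and 68 UMIs), a ratio of -1.94 [-2.57 to -1.33], where that of Ptgs2 was above 0. In neutrophil-like cells it stood at 19.4 and 42.5 CPM (32 and 25 UMIs), a ratio of -1.14 [-1.94 to -0.32], lower with FGF8 as Ptgs2 was. Reads were counted with Cell Ranger at its default parameters, and reads from places where both genes may overlap were not examined here. Among fibroblast-like cells thinned to 5000 UMIs, 4.84% of the 434 FGF8 cells with a Ptgs2 UMI also had a Ptgs2os UMI, against 0.681% of the 2498 without one, and with BSA these shares were 4.94% of 81 and 0.708% of 1413. Ptgs2os too is on the study's list made from these libraries.

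Ptgs1, the cyclooxygenase that most tissues use at rest, had its highest levels outside fibroblasts. Keratinocyte-like cells read 23.8 CPM [19.3 to 29.1] with FGF8 and 20.4 [14.7 to 27.6] with BSA, chondrocyte-like cells 23.0 and 16.8 CPM, blood endothelial-like cells 13.5 and 9.13 CPM and neutrophil-like cells 12.1 and 11.9 CPM (20 and 7 UMIs). The keratinocyte-like and chondrocyte-like levels did not differ beyond counting error in either library. Fibroblast-like cells stood at 4.99 and 4.98 CPM (348 and 176 UMIs), with a log2 ratio of 0.00 [-0.26 to 0.27], and 1 of the BSA cells held 12.5% of that library's fibroblast-like Ptgs1 UMIs. The ratio was -0.43 [-0.89 to 0.02] in cells called female and 0.47 [-0.12 to 1.11] in those called male. A difference in Ptgs1 was therefore not detectable in fibroblast-like cells at this depth. Over all cells the ratio was 0.23 [0.02 to 0.44], from 603 and 271 UMIs, and monocyte or dendritic-like cells had 14 and 2 UMIs (2.58 [0.46 to 5.76]).

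Ptges, which makes prostaglandin E, had 85.9% of its UMIs in fibroblast-like cells with FGF8 and 87.9% with BSA (34.6% and 48.1% with types called per cell). Of the UMIs of all genes, these cells held 69802761 of 103223720 with FGF8 and 35373129 of 54376379 with BSA. The Ptges level in them was 45.3 CPM [43.8 to 46.9] and 32.8 CPM [31.0 to 34.8], a log2 ratio of 0.47 [0.37 to 0.56]. The ratio was 0.56 in cells called female and 0.23 [0.04 to 0.42] in those called male. Unlike the other synthase, Ptgis, Ptges was spread over the fibroblast-like subclusters, from 30.8 to 51.8 CPM with FGF8 and from 25.5 to 43.9 CPM with BSA. The ratio was 0.61 [0.42 to 0.81] in Prg4, 0.53 in Fmod, 0.26 in Tmem132c and 0.24 [0.01 to 0.47] in Lpl cells. It was 0.70 [-0.02 to 1.48] in cells of low depth and -0.43 [-1.15 to 0.29] in Corin cells. In cells called male every subcluster interval reached across 0. In Tmem132c cells called female the ratio was -0.14 [-0.51 to 0.23]. Detection of Ptges in cells with and without Ptgs2 had intervals that overlapped. With FGF8, 97 of 434 Ptgs2-positive (22.4%) and 463 of 2498 Ptgs2-negative fibroblast-like cells (18.5%) had a Ptges UMI at 5000 UMIs per cell, and with BSA 12 of 81 and 212 of 1413 did.

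Chondrocyte-like cells had 138 Ptges UMIs with FGF8 (43.6 CPM) against 17 with BSA (10.6 CPM), a log2 ratio of 2.04 [1.31 to 2.86]. At the Ptges to Col1a2 ratio of fibroblast-like cells, free RNA would bring 7.89 and 8.72 CPM there. The part of the neutrophil, erythroid, macrophage and keratinocyte markers, which were also higher in these cells with FGF8, was not tested. Both the female-called cells (61 and 13 UMIs, ratio 2.44) and the male-called cells (71 and 4 UMIs, ratio 1.49) were higher with FGF8. Keratinocyte-like cells read 22.8 and 25.8 CPM of Ptges, a ratio of -0.18 [-0.68 to 0.34], with 1.52 in cells called female and -1.60 in those called male.

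Ptgis, the prostacyclin synthase, marked out the Fmod and Scx subcluster, whose leading genes include the tendon genes Fmod and Scx. Its level there was 208 CPM with FGF8 and 221 CPM with BSA, against 69.0 and 111 CPM in the Prg4 subcluster, 52.6 and 33.0 CPM in the Lpl subcluster and 21.6 and 17.2 CPM in the Tmem132c subcluster. In the Fmod and Scx subcluster the sexes differed. Cells called female read 220 and 200 CPM (log2 ratio 0.14 [-0.01 to 0.28]) and those called male 206 and 352 CPM (-0.77 [-0.94 to -0.59]). At 5000 UMIs per cell, Ptgis was detected in 27.6% of Ptgs2-positive and 19.8% of Ptgs2-negative FGF8 fibroblast-like cells, and with BSA in 33.3% and 16.1%. Within the Fmod and Scx subcluster the shares were 47.3% and 49.1% with FGF8 and 51.4% and 47.2% with BSA, with intervals that overlapped. The log2 ratio changed sign between subclusters, from -0.69 [-0.80 to -0.57] in Prg4 cells to 0.67 [0.42 to 0.92] in Lpl cells and 1.39 [0.60 to 2.28] in the subcluster of low depth (103 and 15 UMIs). Over all fibroblast-like cells it was -0.18 [-0.25 to -0.12], from 77.5 and 88.0 CPM, and it was 0.10 in cells called female and -0.35 in those called male. With the stricter cell filter it was 0.12, so no direction is read from it. In chondrocyte-like cells Ptgis stood at 27.1 CPM with FGF8 and 113 CPM with BSA (86 and 181 UMIs), a ratio of -2.05 [-2.44 to -1.67]. That difference lay in female-called cells (15 and 164 UMIs, ratio -3.24), while male-called cells had 66 and 8 UMIs (ratio 0.38). If all Col1a2 in chondrocyte-like cells were free RNA, the fibroblast-like Ptgis to Col1a2 ratio would bring 13.5 CPM with FGF8 and 23.4 CPM with BSA. The fibroblast markers also summed to less in chondrocyte-like cells with FGF8, 4144 against 9574 CPM (Col1a2 1147 against 3220), and so did the chondrocyte markers, 43660 against 58836 CPM (Col2a1 26061 against 33087). The part of this in the Ptgis difference was not tested.

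Ptgds, the lipocalin-type prostaglandin D synthase, was nearly absent, with 16 UMIs with FGF8 and 5 with BSA. Fibroblast-like cells held 1 of them, and the 0 UMIs of the BSA fibroblast-like cells allow up to 0.104 CPM. Another prostaglandin D synthase, Hpgds, stood in macrophage-like cells at 316 CPM with FGF8 and 321 with BSA, a ratio of -0.03 [-0.17 to 0.12], and in mast-like cells at 180 and 269 CPM.

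Hpgd, which starts the breakdown of prostaglandins, had 93.8% of its UMIs with FGF8 and 93.6% with BSA in fibroblast-like cells. The level was 133 CPM [130 to 136] with FGF8 and 91.0 CPM [87.9 to 94.2] with BSA, a log2 ratio of 0.55 [0.49 to 0.61], and the ratio was 0.69 in cells called female and 0.39 in those called male. The Lpl and Agtr2 subcluster stood well above the rest at 451 and 282 CPM, followed by the Corin and Alx4 subcluster at 195 and 197 CPM. Ratios of 0.67 to 1.03 were found in the Tmem132c, Prg4, Fmod and Lpl subclusters, and the ratio was -0.01 [-0.31 to 0.29] in the Corin subcluster and -0.08 [-0.50 to 0.34] in the subcluster of low depth. In cells called female these last 2 ratios were -0.78 [-1.55 to -0.07] and -0.74 [-1.51 to -0.02]. In those called male they were -0.02 [-0.44 to 0.43] and 0.38 [-0.52 to 1.43]. In the Prg4 subcluster the sexes parted, with 1.36 [1.12 to 1.61] in cells called female and -0.46 [-0.69 to -0.22] in those called male. In the Fmod subcluster both sexes lay above the 0.77 of all its cells. The ratio there was 1.62 [1.37 to 1.86] in cells called female and 2.82 [1.82 to 4.04] in those called male (432 and 8 UMIs). It was 0.93 and 1.35 in Tmem132c cells and 0.36 and 0.83 in Lpl cells called female and male. Macrophage-like cells also held Hpgd, at 39.5 and 33.9 CPM, a ratio of 0.22 [-0.21 to 0.66]. Cells called female had 24 and 67 UMIs there (-0.14 [-0.88 to 0.55]) and cells called male 105 and 0 UMIs. Fibroblast markers in macrophage-like cells summed to 3056 CPM with FGF8 and 576 with BSA, led by Col3a1 at 919 and 155 CPM, and free RNA at the Hpgd to Col1a2 ratio of fibroblast-like cells would bring 17.8 and 1.05 CPM of Hpgd.

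Slco2a1, the transporter that carries prostaglandins into cells to be broken down, was highest in blood endothelial-like cells (248 CPM with FGF8 and 111 with BSA, ratio 1.16 [0.86 to 1.48], 459 and 109 UMIs). Blood endothelial markers there summed to 6598 and 6180 CPM, led by Pecam1 at 1358 and 1250 CPM. Markers of other types also differed, lymphatic endothelial ones summing to 78.3 and 414 CPM (led by Ccl21a), pericyte ones to 16.7 and 158 CPM (led by Rgs5) and erythroid ones to 12484 and 4028 CPM (led by Hbb-bs), and their part was not tested. Fibroblast-like cells read 20.4 and 13.7 CPM of it, a ratio of 0.58 [0.43 to 0.73]. The pair was detected together in fibroblast-like cells. Among FGF8 fibroblast-like cells thinned to 5000 UMIs, Slco2a1 was detected in 13.0% [10.4 to 15.9] of cells with Hpgd and in 5.45% [4.56 to 6.45] of those without, and with BSA in 8.66% [5.51 to 12.8] and 3.79% [2.80 to 5.01]. Within subclusters of the FGF8 library the shares were 8.5% [5.03 to 13.3] and 1.89% [1.04 to 3.16] in Tmem132c cells, while in the others the intervals overlapped, with 17.6% and 10.0% in Lpl cells, 10 of 28 and 8 of 47 cells in the Corin subcluster and 9.01% and 8.58% in Prg4 cells.

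Among the receptors, Ptger4 and Ptger3 differed in opposite directions in fibroblast-like cells. Ptger4, a receptor of prostaglandin E that raises cyclic AMP, stood at 22.2 CPM [21.1 to 23.3] with FGF8 and 12.0 CPM with BSA (1547 and 426 UMIs), a log2 ratio of 0.88 [0.72 to 1.04]. It was higher in each of the 6 subclusters, by 0.39 to 1.60, and in cells called female (0.95) and in those called male (0.83). At 2000 UMIs per cell it was detected in 4.49% [3.80 to 5.27] and 1.74% [1.16 to 2.51] of cells (833 and 249 cells unthinned), beside 0.626% and 0% in erythroid-like cells. In immune and epithelial cells no difference was detectable at this depth: macrophage-like cells 28.8 and 25.9 CPM, monocyte or dendritic-like cells 21.4 and 27.3 CPM and keratinocyte-like cells 29.5 and 21.4 CPM, with intervals of the ratio that all reached across 0.

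Ptger3, a receptor of prostaglandin E that mostly lowers cyclic AMP, stood at 10.4 CPM [9.69 to 11.2] with FGF8 and 19.3 CPM [17.9 to 20.8] with BSA (728 and 682 UMIs), a log2 ratio of -0.89 [-1.04 to -0.73]. Cells called female gave -1.06 and those called male -0.87. Its level varied among the subclusters, with 48.7 and 48.9 CPM in Corin and Alx4 cells, 31.1 and 37.2 CPM in Tmem132c cells, 20.5 and 22.1 CPM in cells of low depth and 14.6 and 22.7 CPM in Lpl cells, but 1.57 and 3.63 CPM in Prg4 cells and 1.48 and 1.68 CPM in Fmod cells. Within subclusters the differences were smaller than the whole, -0.26 [-0.45 to -0.07] in Tmem132c cells, -0.64 [-1.01 to -0.28] in Lpl cells and -0.01 [-0.61 to 0.62] in Corin cells, with the exception of Prg4 cells, where the ratio was -1.21 [-1.90 to -0.49] from 52 and 28 UMIs. In Tmem132c cells the sexes had opposite signs, -0.63 [-1.02 to -0.26] in cells called female and 0.36 [-0.03 to 0.77] in those called male. With the FGF8 subclusters weighted as in the BSA library, the ratio was -0.33. At 2000 UMIs per cell Ptger3 was detected in 3.04% [2.47 to 3.70] and 3.79% [2.91 to 4.84] of fibroblast-like cells (11.9% and 20.4% unthinned), and these intervals overlapped.

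Ptgfr, the receptor of prostaglandin F, had 95.4% and 95.2% of its UMIs in fibroblast-like cells, at 45.9 CPM with FGF8 and 39.1 with BSA (log2 ratio 0.23 [0.14 to 0.32]). The ratio was 0.50 [0.36 to 0.63] in cells called female and -0.14 [-0.31 to 0.03] in those called male, where the interval reached across 0. Tmem132c cells read 80.6 and 65.3 CPM, Lpl cells 89.5 and 49.3 CPM and the subcluster of low depth 61.4 and 61.5 CPM. Prg4 cells read 24.1 and 11.9 CPM, a ratio of 1.02 [0.70 to 1.34], which was 1.58 [1.13 to 2.05] in cells called female and 0.27 [-0.24 to 0.84] in those called male. In Tmem132c, Fmod and Lpl cells called male the ratio was 0.15, 0.58 and 0.26, and these intervals too reached across 0. Ptger2, a further receptor of prostaglandin E, had only 132 and 51 UMIs. Neutrophil-like cells read 13.3 CPM with FGF8 and 5.10 with BSA (22 and 3 UMIs), monocyte or dendritic-like cells 9.92 and 6.02 CPM (25 and 13 UMIs) and T cell-like cells 8.21 and 9.01 CPM (5 and 4 UMIs). Fibroblast-like cells stood at 0.860 and 0.622 CPM, a ratio of 0.47 [-0.26 to 1.24] whose interval reached across 0.

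**Figure D4:**
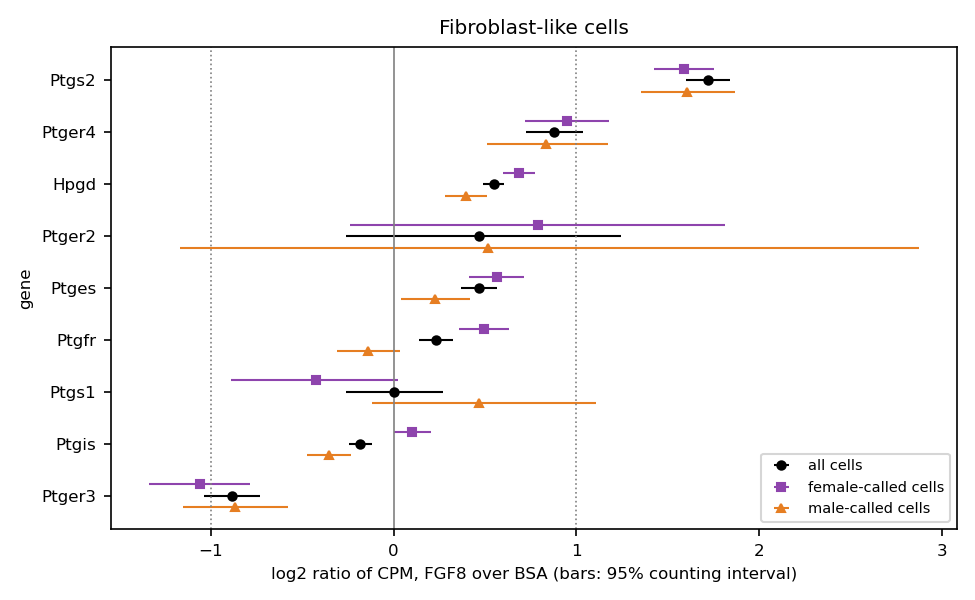
Log2 ratio of CPM, FGF8 over BSA, in fibroblast-like cells (x axis; dotted lines at -1 and 1) for the 9 prostaglandin genes with at least 10 UMIs, with 95% counting intervals, for all cells (black circles), cells called female (purple squares) and cells called male (orange triangles). Ptgs2 (1.72) lies beyond 1, Ptger4 (0.88) and Ptger3 (-0.89) lie near the dotted lines, and for Ptgis, Ptgfr and Ptgs1 the sexes lie on opposite sides of 0.

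As a list, 9 of the 10 genes reached 10 UMIs among fibroblast-like cells, and Ptgds did not. Only Ptgs2 lay above 1 on the log2 scale, where 6.64% of the 20043 genes with at least 10 UMIs lay, and none lay below -1, where 4.99% lay. The median ratio of the 9 genes was 0.47, beside -0.07 over all 20043 genes. This describes a list chosen with earlier results known, and nothing particular to the list is read from it. Over the 12 cell types with at least 50 cells in both libraries, 30 of the 74 pairs of gene and cell type with at least 10 UMIs lay above 1 and 2 lay below -1, beside 8.46% and 5.2% of such pairs over all genes. Of the 30, 21.0 had at most 3 UMIs with BSA and so passed the minimum through the FGF8 library alone, such as Hpgd in erythroid-like cells (40 and 0 UMIs). Others stood at the level of free RNA, such as Ptgs2 in Schwann-like cells (24 and 1 UMIs), so nothing is read from this count. At least 50 UMIs were held by 4 of the 30 and 1 of the 2.

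The other genes of the pathway and its neighbours, 54 listed and 52 in the files, had 45 that reached 10 UMIs among fibroblast-like cells. Of these, 2 lay above 1 and 2 below -1, beside 6.64% and 4.99% of all genes, and their median was 0.15. Nothing is read from these counts. Above 1 were Ptgs2os and the phospholipase Pla2g10 (36 and 2 UMIs, ratio 3.19 [1.23 to 6.29]). Pla2g10 passed the minimum of 10 UMIs through the FGF8 library alone, and 30 of its 36 UMIs there were in cells called female. Over all cell types its 40 FGF8 UMIs lay in 12 cells, so no difference is read from it. Below -1 were the prostaglandin D receptor Ptgdr, with 7 and 8 UMIs (-1.17 [-2.87 to 0.48], an interval across 0), and the leukotriene receptor Cysltr1, with 9 and 20 UMIs (-2.13 [-3.45 to -0.93]). Of the 10 phospholipases A2 listed, Pla2g7 was at 0.67 [0.38 to 0.98] and Plaat3 went the other way, at -0.43 [-0.55 to -0.31]. The intervals of Pla2g2e, Pla2g6, Pla2g12a and Pla2g15 reached across 0. Pla2g4a, the cytosolic enzyme that frees arachidonic acid, stood at 49.0 CPM with FGF8 and 37.0 with BSA (ratio 0.40 [0.31 to 0.50]). It was detected in 26.5% of Ptgs2-positive and 16.9% of Ptgs2-negative FGF8 cells at 5000 UMIs. With BSA these shares were 18.5% [10.8 to 28.7] and 14.5% [12.7 to 16.5], and the intervals overlapped. Within the FGF8 subclusters they overlapped too, with 28.3% and 19.8% in Prg4, 17.4% and 13.7% in Tmem132c, 24.5% and 18.8% in Fmod and 28.6% and 19.3% in Lpl cells. Of the other prostanoid synthases, Ptges2 (0.51), Ptges3 (0.47), Akr1b3 (0.39) and Akr1b8 (0.56) had intervals above 0, Cbr1 was at -0.17, and none passed 1 in either direction. For Akr1b3 the ratio was 0.48 [0.38 to 0.59] in cells called female, but 0.08 [-0.05 to 0.20] in those called male. The thromboxane receptor Tbxa2r stood at 16.6 and 30.2 CPM, a ratio of -0.87 [-0.99 to -0.74], and Ptgfrn, a partner of Ptgfr, at 86.8 and 115 CPM (-0.40). Tbxa2r was among the leading genes of a group of fibroblast-like cells led by Coch and Nrg1. The part of the subcluster makeup in its ratio was not tested here. Ptger1 (0.52 [0.15 to 0.89]) was low in both libraries, at 3.44 and 2.40 CPM.

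Of the cytokines known to induce Ptgs2, Il1b was mainly a neutrophil-like gene. Neutrophil-like cells held 80.5% of the Il1b UMIs with FGF8 and 73.1% with BSA, at 7631 and 8283 CPM, and Il6 in fibroblast-like cells stood at 12.1 and 7.69 CPM (ratio 0.65 [0.45 to 0.86]), with 1.55 [1.25 to 1.85] in cells called female and 0.44 [0.02 to 0.88] in those called male. Tnf in fibroblast-like cells was low, at 1.30 and 1.05 CPM (91 and 37 UMIs, ratio 0.32 [-0.25 to 0.91]), with 1.48 [0.69 to 2.29] in cells called female and 1.84 [-0.09 to 4.92] in those called male. Of the genes listed as brakes on prostaglandin synthesis, the glucocorticoid-induced Tsc22d3 stood at 18.9 and 32.5 CPM (-0.79 [-0.90 to -0.67]), Dusp1 at 178 and 141 CPM (0.34) and Zfp36, which degrades Ptgs2 messenger RNA, at 142 and 110 CPM (0.37), while Anxa1 differed by 0.02 [-0.01 to 0.04]. Alox5ap, which serves leukotriene synthesis, stood at 1278 and 1584 CPM in neutrophil-like cells and at 1095 and 1082 CPM in monocyte or dendritic-like cells.

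**Figure D5:**
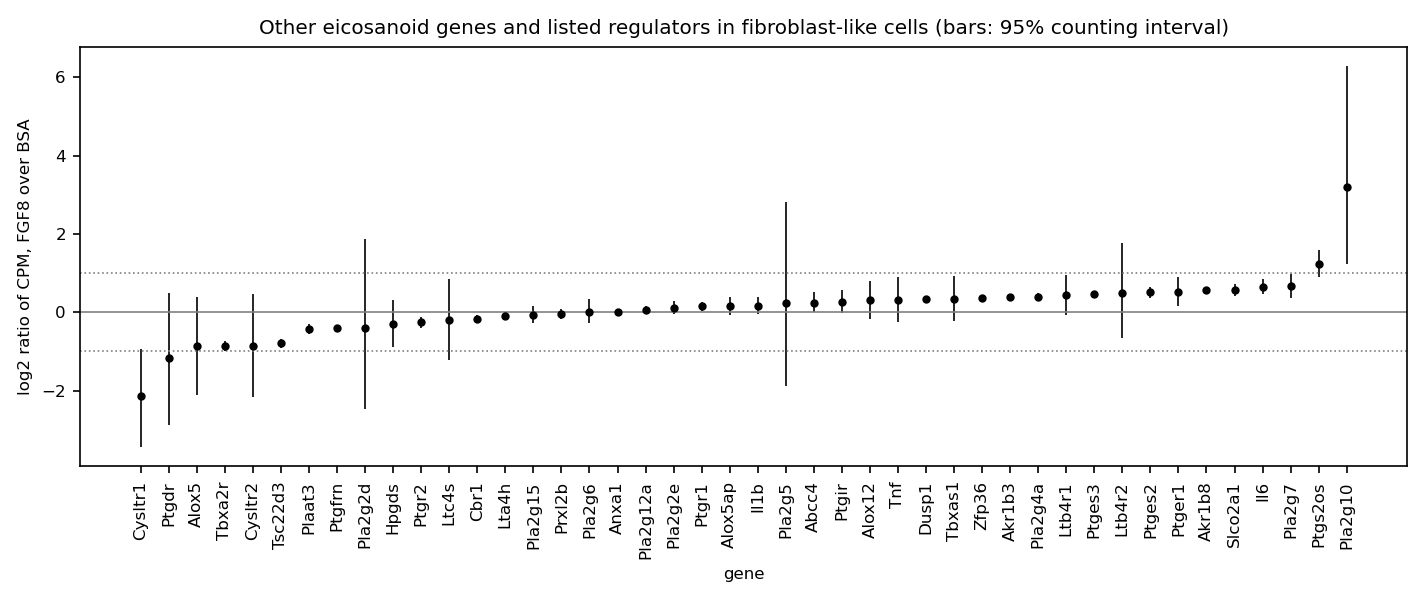
Log2 ratio of CPM, FGF8 over BSA, in fibroblast-like cells (y axis; dotted lines at -1 and 1, bars 95% counting intervals) for 44 of the 45 other pathway genes with at least 10 UMIs, ordered by ratio (x axis). Tbxa2r (-0.87) and Tsc22d3 (-0.79) lie low with narrow intervals, and Ptgs2os (1.24) lies high.

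Patterns over cell types were compared by Pearson r of log2(CPM + 1) over 26 pairs of cell type and library, which share libraries and cell composition, so r is a description. The nearest genes to Ptgs2 were Chil1 (r = 0.88), Sgms2 (0.86) and Ptgs2os (0.86), those to Ptges were Egfr (0.84), Gli1 (0.83) and Slc1a3 (0.80), and those to Ptgis were Rspo3 (0.87), C1qtnf3 (0.85) and Clec11a (0.85). Hpgd was nearest to Clmp (0.84), Pdgfc (0.80) and Dnm1 (0.78). For the receptors, Ptgfr was nearest to Col7a1 (0.89), Wnt5a (0.84) and Twist2 (0.84), Ptger4 to Pycard (0.86), Slc7a8 (0.80) and Snx30 (0.80), Ptger3 to Cacna2d3 (0.73) and Areg (0.72), and Ptger2 to Cd244a (0.94), Lsp1 (0.91) and Cyp4f18 (0.91). Ptgs1 was nearest to Noct (0.83), Tob1 (0.77) and Klf4 (0.77). The nearest pairs among the 10 genes themselves were Ptgfr with Ptges (0.67) and Ptges with Ptgs2 (0.60).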

How the data were processed

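The authors deposited a matrix of UMI counts for each library, made with Cell Ranger 9.0.0 on a GRCm39 reference; the counts are whole and not normalized. The submitters' processing notes also name Seurat and list mm10. Following the study, barcodes with more than 200 and fewer than 7500 genes and under 15% mitochondrial UMIs were kept and clustered in Seurat 5.3.0 (SCTransform, CCA integration, 30 components, resolution 0.05, seed 42). The 10 genes and their pathway were left out of the variable features; fibroblast-like cells were re-clustered at 0.2, also without sex-linked genes and the genes of the study's lists. A type name needed 3 fixed markers detected in 10% of cells, 1 marker among the 10 leading genes and a mean marker log2 fold above 1. The last limit was set after seeing the data, and it left 457 cells with a median of 787 UMIs unnamed; 3 further groups had no marker among their leading genes, and 1007 cells in 4 groups stayed unnamed in all. Scrublet marked 95 and 2 cells at its own threshold, too few for a working doublet call, so none was removed. Sex was called from Xist and 4 Y-linked genes. Levels (CPM) are UMIs summed over a type and scaled to 1000000; a library at 0 UMIs entered ratios at a floor of 3 counts per library. Thinning to 2000 UMIs left out 781 and 343 cells, and to 5000 UMIs 1744 and 798. Intervals are exact at 95%: Poisson for levels, conditional binomial for ratios and Clopper-Pearson for shares. In simulated fibroblast-like sums over 20023 genes, the intervals held the true ratio for 97% of 200 changed genes. The text names the 10 genes, the pathway lists and the 3 genes nearest in pattern to each, of which 1 is not reported here. The members and lists were chosen with earlier results of these data known.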

Additional observations from a re-analysis of the deposited data

Results flagged for a closer look

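Ptgs2 had log2 ratios of opposite sign in fibroblast-like cells (1.72) and neutrophil-like cells (-0.45), a difference of 2.17. Ptgis did so in keratinocyte-like cells (1.78, from 27 and 4 UMIs) and fibroblast-like cells (-0.18), a difference of 1.97. The keratinocyte-like levels, 6.70 and 1.94 CPM, lie close to or below background: at the Ptgis to Col1a2 ratio of fibroblast-like cells, free RNA would bring 6.69 and 3.78 CPM, so they are not read as expression. In 4 places the sexes had opposite signs with both intervals clear of 0. The female-called minus male-called log2 ratio was 0.46 for Ptgis in fibroblast-like cells, 2.05 for Ptgis in the Tmem132c and Nrg1 subcluster (1.31 and -0.73), 1.82 for Hpgd in the Prg4 and Mmp3 subcluster and 3.12 for Ptges in keratinocyte-like cells (1.52 from 15 and 9 UMIs, and -1.60 from 47 and 24 UMIs). With 1 library per group, none of these differences was tested. Barcodes that the cell filters left out, 534 with FGF8 and 451 with BSA, held Ptgs2 at a ratio of 1.72 (1536 and 288 UMIs), Ptges at 0.85 (794 and 272), Ptger4 at 0.65 (499 and 196) and Ptgis at 0.18 (1170 and 635).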

How the results depend on the processing

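No paired analysis was possible because each group had 1 library, and for the same reason no library could be left out. Over all 16 alternatives the fibroblast-like ratio of Ptgs2 lay between 1.40 and 2.46, that of Ptger4 between 0.82 and 1.42, that of Hpgd between 0.39 and 0.80, that of Ptges between 0.23 and 0.56 and that of Ptger3 between -1.06 and -0.32. Ptgfr turned to -0.14 in male-called cells. Ptgis turned to 0.025 with each cell weighted equally, 0.10 in female-called cells, 0.12 with the stricter cell filter, 0.14 thinned to 5000 UMIs, 0.46 with types called per cell from markers and 0.34 when the upper limit on genes was dropped too; the cause was not tested. Members above 1 numbered 2 with types per cell, with no upper limit and thinned to 2000 UMIs, and 3 thinned to 5000 UMIs and without the 1% of cells richest in each gene. Below -1 lay 1 in female-called cells and without those 1%. In the main setting 6.64% of all genes lay above 1 and 4.99% below -1 in fibroblast-like cells. Such shares are not given for these alternatives, so nothing is read from these member counts. Nothing is read from counts of pairs of gene and cell type, since pairs could pass 10 UMIs through the FGF8 library alone or at the level of free RNA. Those above 1 numbered 4 of 25 at 50 UMIs (3.73% of pairs over all genes), 17 of 51 without integration (7.32%), 8 of 34 in cells called female (6.78%), 16 of 55 in those called male (11%), 19 of 60 without the highest Scrublet scores (7.38%), and 9 of 28 and 12 of 32 thinned to 2000 and 5000 UMIs (9.84% and 8.39%). Without the richest 1% they numbered 19 of 52, and for that setting no share over all genes was counted. Of the same pairs, 1 lay below -1 at 50 UMIs (2.08% over all genes) and thinned to 5000 UMIs (5.56%), 5 in cells called female (9.96%) and 8 in those called male (8.58%), and 5 of 90 with types per cell (5.09%) and 5 of 94 without the upper limit (5.03%). Members with most UMIs in fibroblast-like cells numbered 8 with FGF8 and 7 with BSA, and 3 in each with types per cell, where Hpgd, Ptger3 and Ptgfr kept over 50% and Ptgs1, Ptges, Ptgis and Ptger4 (and Ptgs2 with FGF8) did not. In the main setting fibroblast-like cells held most of all kept UMIs in both libraries, so nothing is read from this count. Pathway genes above 1 numbered 1 at 50 UMIs and, in an alternative chosen after seeing the data, with the subcluster makeup of the BSA library, 4 in female-called cells and with types per cell, 5 with no upper limit and without the richest 1%, 6 with the stricter filter and 7 thinned to 2000 UMIs. Those below -1 numbered 6 with all variable features and without integration, 1 in female-called cells and with types per cell, and 0 at 50 UMIs, with no upper limit, thinned to 2000 or 5000 UMIs and without the richest 1%. These pathway counts are given without the share over all genes in each setting, and nothing is read from them.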
